A study of Rattus norvegicus with 12 samples.

Results

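The genes described here encode the subunits of voltage-gated sodium channels, voltage-gated calcium channels and HCN (hyperpolarization-activated, cyclic nucleotide-gated) channels in the contused spinal cord of immunocompetent and athymic rats. A list of 37 subunit genes was looked up by symbol among the 17423 genes of the expression tables, and 28 could be matched to a row. Of these, 14 of 20 encode pore-forming subunits and 14 of 17 encode auxiliary subunits. The 9 genes that could not be matched without ambiguity (Scn3a, Cacna1a, Cacna1c, Cacna1g, Cacna1h, Cacna1s, Cacna2d1, Cacng4 and Cacng5) were not analysed here.

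RNA was sequenced from 12 female rats in 4 groups of 3, aged 16 to 18 weeks when they were injured. SD rats (Sprague-Dawley, Hsd:SD) are immunocompetent, and AN rats (Athymic Nude, Hsd:RH-rnu/rnu) lack a functional thymus and so have few mature T cells. All 12 received a moderate contusion of 200 kdyn, and a segment of 1 mm through the injury was taken at 1 week (acute phase) or 8 weeks (chronic phase). The strains also differ in genetic background, since AN rats derive from another stock, so the athymic state and the background cannot be told apart, and no uninjured cord was analysed here.

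Levels are FPKM, the number of sequenced fragments scaled to exon length and, by quartile normalization, to the depth of the library, which is a level per length and can be compared between genes of a group. Each table gives 1 FPKM for a whole group of 3 rats. These values carry no spread between rats, no test was run on them here, and every difference below is a description of 4 pooled values. The strain difference is log2FC, the log2 of AN over SD FPKM, and a gene is counted as lower or higher in AN from a difference of 2-fold on. It was computed for genes with a mean FPKM of at least 0.5 over both strains of a phase, which 25 of the 28 matched genes reached in each phase.

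The route by which a gene was matched bears on every count below. Of the 28 genes, 20 were named through the study's supplementary gene table, and the portion of it read here held only genes that the authors had called different between strains in the acute phase. These 20 were thus in effect chosen for an acute difference, and their acute values describe that choice. The other 8 were named by an RGD number among synonyms (Cacna2d4) or by gene order (Scn4a, Scn10a, Scn11a, Cacna1d, Hcn4, Cacnb2 and Cacnb3). Being outside that portion, they lean the opposite way, towards genes not called different acutely, so neither set is an even sample. Among all genes over the floor, 57.2% of the 1921 named through the table and 2.85% of the 9766 others were at least 2-fold lower in AN in the acute phase. In the chronic phase, which has other rats, the shares were 29.7% of 1952 and 2.01% of 9894.

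Voltage-gated sodium channels (Nav) open on depolarization and carry the upstroke of the action potential, and in myelinated axons they are gathered at the initial segment and the nodes of Ranvier. Voltage-gated calcium channels (Cav) turn depolarization into calcium entry, which triggers transmitter release at terminals and shapes firing in cell bodies. HCN channels open on hyperpolarization and set resting potential and rhythm. In each family a pore-forming alpha subunit holds the voltage sensor and the ion path, while auxiliary subunits bring it to the membrane, anchor it or tune its gating.

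The channel genes were lower in AN rats in nearly all cases that had a value. In the acute phase 21 of 25 genes were at least 2-fold lower in AN and no gene was 2-fold higher, against 11.8% of 11687 listed genes lower and 2.14% higher. In the chronic phase 15 of 25 were at least 2-fold lower and again no gene was higher, against 6.57% of 11846 lower and 2.38% higher. Split by route, all 20 genes named through the supplementary table were 2-fold lower acutely and 15 of them chronically. Of the 5 genes over the floor that were named another way, 1 was 2-fold lower acutely (Cacna1d) and 0 chronically. The acute median log2FC was -2.24 for the 20 and -0.63 for the 5, and the chronic medians were -1.93 and -0.35. The 25 genes over the floor are therefore not an even sample of the channel families.

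**Figure D1:**
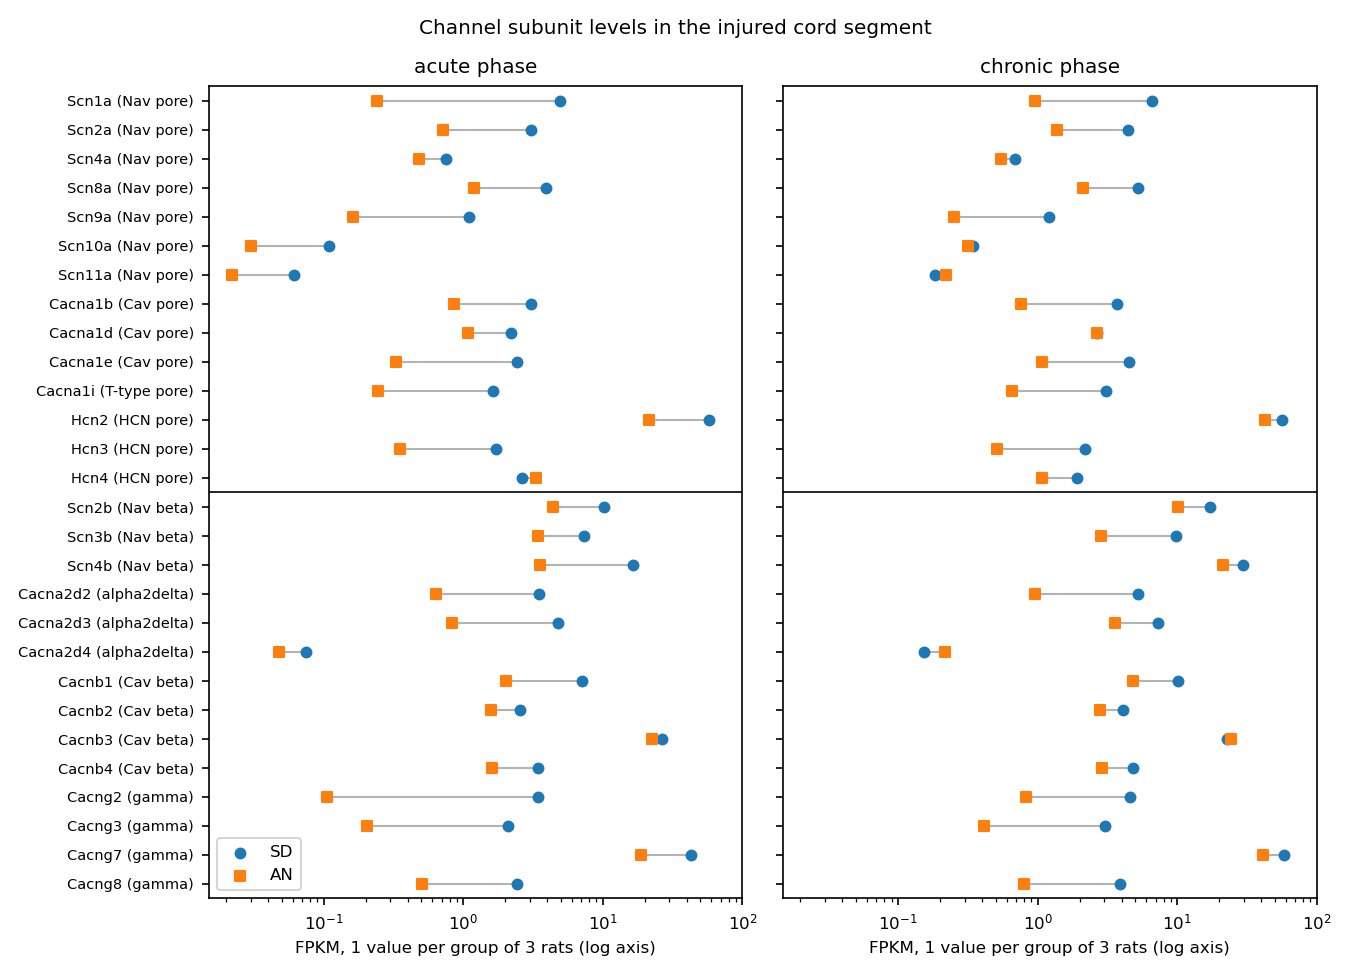
FPKM of each of the 28 matched subunit genes (log axis) in SD rats (circles) and AN rats (squares), 1 value per group of 3 rats, in the acute (left) and chronic phase (right); the horizontal line separates pore-forming from auxiliary subunits. Hcn2, Cacng7 and Cacnb3 are among the 4 highest in every group, and Cacng2 in the acute phase has 3.45 in SD and 0.106 in AN.

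Among the sodium channel pores, Scn1a, which encodes a main alpha subunit of fast-firing neurons, stood furthest apart between the strains. Scn1a (RGD:69364, RN4 chr3:48238528-48364143) was at an FPKM of 4.90 against 0.240 (SD against AN) at 1 week, and of 6.56 against 0.964 at 8 weeks. It was thus 20.4-fold lower in AN acutely (log2FC -4.35) and 6.80-fold lower chronically (-2.77). The acute AN value was itself below the floor, and with a pseudocount of 1 FPKM the log2FC was -2.25 acutely and -1.94 chronically. In all, 8 of the 25 genes over the floor acutely and 2 chronically had an AN value under 0.5, and their folds depend on such small values.

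Scn1a lies in a cluster with Scn2a and Scn9a. Scn2a (RGD:3632, chr3:47588413-47722800), an alpha subunit of unmyelinated axons and initial segments, had 3.04 in SD and 0.718 in AN rats acutely, and 4.45 and 1.38 chronically. Scn9a (RGD:69368, chr3:48438725-48518893), best known from nociceptors, had 1.10 and 0.162 acutely, and 1.21 and 0.254 chronically. Both neighbours were lower in AN in both phases, with log2FC of -2.08 and -1.69 for Scn2a and of -2.76 and -2.25 for Scn9a. Scn8a, the alpha subunit of mature nodes of Ranvier, had 3.89 in SD and 1.20 in AN rats acutely and 5.23 and 2.11 chronically, which is 3.25-fold and 2.47-fold lower in AN. Its row shares a locus with another listed gene, so how fragments were divided between them is not known.

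The remaining sodium channel pores were low in every group. Scn4a, the alpha subunit of skeletal muscle, had 0.747 in SD and 0.483 in AN rats acutely and 0.695 and 0.544 chronically, with log2FC of -0.63 and -0.35. Scn10a and Scn11a, the alpha subunits typical of nociceptive sensory neurons, stayed below the floor. Scn10a had 0.110 in SD and 0.0302 in AN rats acutely, and 0.344 and 0.315 chronically. Scn11a had 0.0617 and 0.0222 acutely, and 0.185 and 0.220 chronically. These 3 genes lie at levels where few fragments can be expected, and the number behind each value is not given.

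The makeup of the sodium channel pool also differed between strains. The FPKM of the 7 matched sodium channel pores added up to 13.8 in SD and 2.85 in AN rats acutely, and to 18.7 and 5.79 chronically. Scn1a made up 35.4% of this sum in SD and 8.43% in AN rats acutely, and 35.2% and 16.7% chronically. The share of Scn8a was higher in AN, at 41.9% against 28.1% acutely and 36.5% against 28.0% chronically. In SD rats Scn1a was the most abundant of the 7 in both phases, while in AN rats Scn8a was. Scn3a is not in these sums.

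The calcium channel pores of nerve terminals were lower in AN rats in both phases. Cacna1b (RGD:628852), the N-type pore of presynaptic terminals, had 3.05 in SD and 0.854 in AN rats acutely, and 3.70 and 0.764 chronically. Its log2FC was further from 0 chronically (-2.28) than acutely (-1.83). Cacna1e (RGD:2246), the R-type pore, had 2.43 in SD and 0.332 in AN rats acutely and 4.53 and 1.08 chronically, or 7.31-fold and 4.19-fold lower in AN. Cacna1i (RGD:68944), a T-type pore that opens near resting potential, had 1.63 and 0.246 acutely and 3.08 and 0.655 chronically, or 6.61-fold and 4.71-fold lower.

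Cacna1d, an L-type pore of cell bodies and dendrites, took another course. It had 2.21 in SD and 1.09 in AN rats acutely, just past the 2-fold limit (log2FC -1.02), and 2.67 in SD and 2.68 in AN rats chronically (log2FC 0.0042). Its chronic values thus lay level while those of Cacna1b and Cacna1e were over 4-fold apart. Cacna1d made up 28.7% of the summed FPKM of Cacna1b, Cacna1d and Cacna1e in SD and 47.9% in AN rats acutely, and 24.5% and 59.2% chronically. This gene was matched by gene order, unlike Cacna1b and Cacna1e.

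The HCN pores differed among themselves. Hcn2 (RGD:620689) had the highest level of any pore-forming gene, with 57.8 in SD and 21.4 in AN rats acutely and 56.6 and 42.8 chronically. Its log2FC was -1.43 acutely and -0.40 chronically. Hcn3, a slowly activating family member, had 1.71 in SD and 0.355 in AN rats acutely and 2.19 and 0.509 chronically, so it was 4.82-fold and 4.30-fold lower in AN. Hcn4, the pacemaker subunit of the heart and of some neurons, was the only subunit over the floor with a higher acute level in AN rats, at 2.64 in SD and 3.31 in AN, and it had 1.92 and 1.07 chronically. Its log2FC of 0.32 and -0.84 both stayed within 2-fold. The row of Hcn2 shares a locus with another listed gene.

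Sodium channel beta subunits, single-pass membrane proteins that alter gating and bind cell adhesion partners, had higher FPKM than the pores. Scn2b had 10.2 in SD and 4.41 in AN rats acutely and 17.3 and 10.1 chronically. Scn3b had 7.38 and 3.43 acutely and 9.87 and 2.83 chronically. Scn4b had 16.6 and 3.57 acutely and 29.5 and 21.2 chronically. All 3 were over 2-fold lower in AN acutely, but in the chronic phase only Scn3b was (3.49-fold). Scn3b and Scn4b differed in course, since log2FC was -1.10 acutely and -1.80 chronically for Scn3b, and -2.22 and -0.48 for Scn4b. In AN rats Scn3b therefore made up 30.1% of the beta subunit sum acutely and 8.30% chronically, against 21.6% and 17.4% in SD.

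The alpha2delta subunits are extracellular proteins that raise the number of calcium channels at terminals and bind gabapentin in some isoforms. Those over the floor were lower in AN in both phases. Cacna2d2 had 3.47 in SD and 0.641 in AN rats acutely and 5.24 and 0.955 chronically, and was 5.41-fold and 5.49-fold lower in AN. Cacna2d3 had 4.77 and 0.838 acutely and 7.28 and 3.59 chronically, or 5.69-fold and 2.03-fold lower. The 2 isoforms thus had near-equal acute log2FC (-2.44 and -2.51) and chronic log2FC of -2.46 and -1.02. Cacna2d4 stayed below the floor, with 0.0753 and 0.0481 acutely and 0.153 and 0.219 chronically, and its row shares a locus with Lrtm2.

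The calcium channel beta subunits, cytosolic proteins that carry the pore to the membrane, included a gene at nearly equal levels in both strains. Cacnb3 (RGD:2248) had 26.6 in SD and 22.6 in AN rats acutely and 22.7 and 24.2 chronically, with log2FC of -0.24 and 0.10. Cacnb1, which also serves the skeletal muscle channel, had 7.14 in SD and 2.02 in AN rats acutely and 10.2 and 4.84 chronically. Cacnb4 had 3.42 and 1.62 acutely and 4.87 and 2.91 chronically. Cacnb2 had 2.55 and 1.59 acutely and 4.06 and 2.82 chronically. Only Cacnb1 was at least 2-fold lower in both phases (3.53-fold and 2.10-fold), and Cacnb4 was so in the acute phase alone (2.11-fold). Cacnb3 made up 67.0% of the beta subunit sum in SD and 81.2% in AN rats acutely, and 54.3% and 69.6% chronically.

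The gamma subunits matched here belong to the transmembrane AMPA receptor regulatory proteins, which escort AMPA-type glutamate receptors to synapses and slow their closing. Cacng2 (RGD:71095), known as stargazin, had 3.45 in SD and 0.106 in AN rats acutely and 4.60 and 0.823 chronically. It was 32.6-fold lower in AN acutely and 5.60-fold lower chronically. The acute fold rests on an AN value near 0: with a pseudocount of 1 FPKM the log2FC was -2.01 in place of -5.03, and Scn1a (-2.25) was lower. Cacng3 had 2.10 and 0.205 acutely and 3.05 and 0.414 chronically, with a chronic log2FC of -2.88, close to that of Scn1a (-2.77). Their order turned with a pseudocount of 0.1 (-2.62 and -2.65). Cacng7 and Cacng8 are neighbours on chromosome 1 (RN4 chr1:64114233-64140485 and chr1:64068324-64088556) but differed in level. Cacng7 had 42.9 in SD and 18.6 in AN rats acutely and 58.5 and 41.1 chronically, while Cacng8 had 2.45 and 0.508 acutely and 3.91 and 0.796 chronically. Cacng8 was 4.82-fold and 4.91-fold lower in AN, and Cacng7 was 2.30-fold and 1.42-fold lower.

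**Figure D2:**
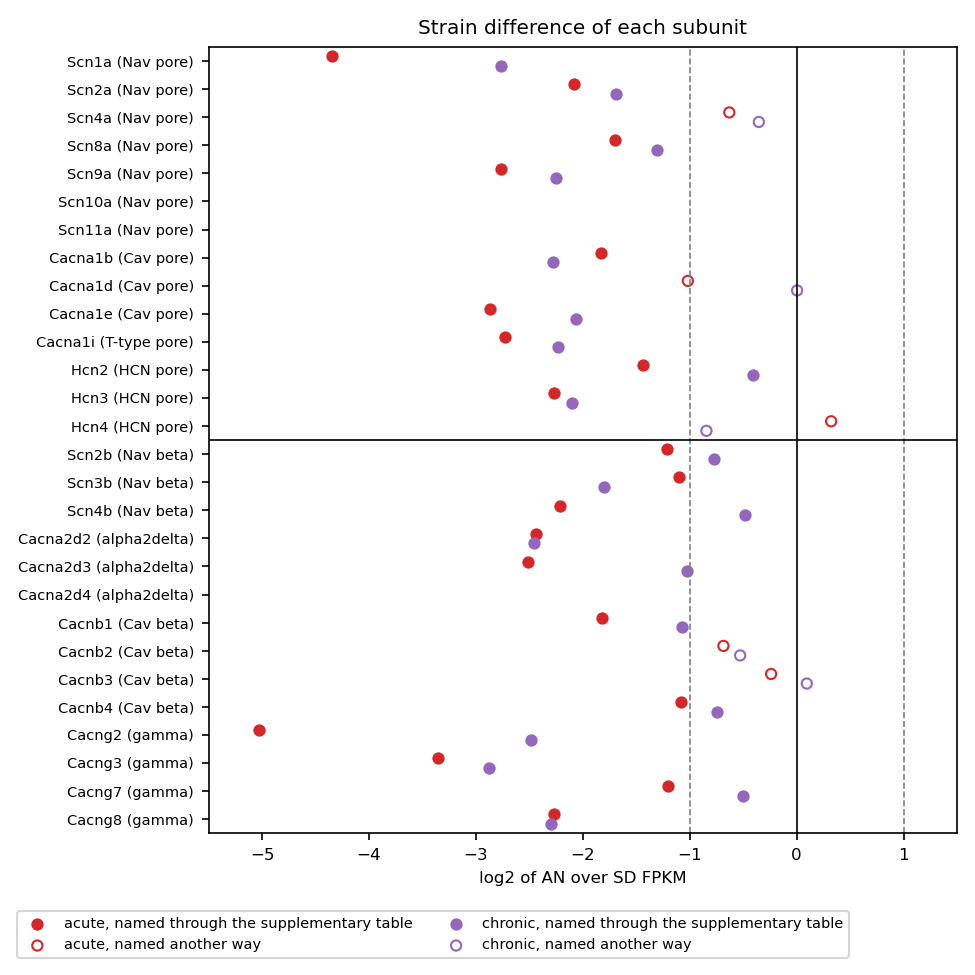
log2 of AN over SD FPKM for each subunit gene over the floor in the acute (red) and chronic phase (purple); filled points were named through the supplementary table, open points another way, and dashed lines mark a 2-fold difference. The open points lie between -1.02 and 0.32, right of most filled ones.

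The promoters of a few subunits are given to show how unlike the start regions of genes with like or unlike strain differences can be. They are 300 bases each (250 before and 50 after the annotated start), from RefSeq on the GRCr8 build, read 5′ to 3′ along the gene. Cacng2 and Cacng3 had the lowest acute and chronic log2FC without a pseudocount, Hcn2 the highest FPKM of a pore, and Cacnb3 a log2FC near 0. Capitals mark the GC box GGGCGG, the TATA box TATAAA, the CCAAT box CCAAT, and the left arm TTCAGCACC or right arm GGACAGCGC of RE1 (the element bound by REST, a repressor of neuronal genes), each searched on both strands, and no 2 marked matches overlap.
Cacng2, chr7:111577708-111578007, minus strand: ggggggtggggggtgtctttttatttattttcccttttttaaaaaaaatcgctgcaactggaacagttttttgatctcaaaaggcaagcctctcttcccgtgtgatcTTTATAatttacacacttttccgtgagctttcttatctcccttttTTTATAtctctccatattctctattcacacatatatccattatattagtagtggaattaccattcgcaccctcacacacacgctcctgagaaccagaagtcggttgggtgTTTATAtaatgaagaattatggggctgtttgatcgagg
Cacng3, chr1:186632312-186632611, plus strand: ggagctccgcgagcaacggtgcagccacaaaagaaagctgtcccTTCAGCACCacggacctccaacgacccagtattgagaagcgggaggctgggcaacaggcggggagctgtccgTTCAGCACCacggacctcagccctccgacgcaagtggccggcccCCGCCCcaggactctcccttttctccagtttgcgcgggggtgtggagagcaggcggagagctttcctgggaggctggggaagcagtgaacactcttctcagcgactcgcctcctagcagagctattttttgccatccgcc
Hcn2, chr7:10639408-10639707, minus strand: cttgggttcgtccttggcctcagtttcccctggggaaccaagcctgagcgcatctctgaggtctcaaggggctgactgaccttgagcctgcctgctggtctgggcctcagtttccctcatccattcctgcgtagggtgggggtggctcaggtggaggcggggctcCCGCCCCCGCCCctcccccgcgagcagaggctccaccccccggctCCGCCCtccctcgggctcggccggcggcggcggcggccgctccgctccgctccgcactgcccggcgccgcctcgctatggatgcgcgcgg
Cacnb3, chr7:131666301-131666600, plus strand: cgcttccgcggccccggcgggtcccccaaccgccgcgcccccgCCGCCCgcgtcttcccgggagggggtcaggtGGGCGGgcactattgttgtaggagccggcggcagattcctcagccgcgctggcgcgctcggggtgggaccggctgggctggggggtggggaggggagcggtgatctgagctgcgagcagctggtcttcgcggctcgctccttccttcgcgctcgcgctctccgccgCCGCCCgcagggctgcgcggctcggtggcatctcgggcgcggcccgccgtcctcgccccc

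Cacng2 had an AT-rich start region (39.0% G and C) with 3 matches to the TATA box, while Hcn2 (72.7%) and Cacnb3 (77.7%) each had 3 GC boxes. The start region of Cacng3 held the RE1 left arm at 2 places. Promoters were used only for genes listed with exactly 1, which held for 18 of the 28 genes. The shares of all promoters were taken without this limit. The RE1 left arm was in 1 of the 18 (5.56%) and in 0.356% of all 33469 promoters, and the right arm in 0 of 18 and in 0.415%. GC boxes were in 8 of 18 (44.4%, against 33.1% of all promoters), the TATA box in 1 (5.56%, against 14.2%) and the CCAAT box in 2 (11.1%, against 37.5%). A match is a run of letters and not a shown binding site.

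Pore-forming and auxiliary subunits had similar acute medians. In the acute phase 10 of 12 pore-forming and 11 of 13 auxiliary genes were at least 2-fold lower in AN, with median log2FC of -1.96 and -1.82. In the chronic phase the counts were 8 of 12 and 7 of 13, and the medians -1.88 and -1.02. With a pseudocount of 1 the chronic medians drew together, at -1.04 for pores and -0.85 for auxiliary subunits, and the acute order turned, at -1.10 and -1.19. The chronic ranges overlapped almost wholly, from -2.77 to 0.0042 for pores and from -2.88 to 0.10 for auxiliary subunits. Among the genes named through the supplementary table alone, 8 of 9 pores and 7 of 11 auxiliary subunits were 2-fold lower chronically, with medians of -2.10 and -1.07. Genes are not replicates of a class, so whether the classes differ was not tested.

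The subclasses differed in their chronic medians. Without a pseudocount these were -2.39 for the 4 gamma and -1.74 for the 2 alpha2delta subunits, against -0.78 for the 3 sodium channel beta and -0.64 for the 4 calcium channel beta subunits. The pores were at -1.69 for 5 sodium channel, -2.07 for 3 high-voltage calcium channel and -0.84 for 3 HCN genes. The naming route was not even across subclasses. All gamma, alpha2delta and sodium channel beta genes with a value were named through the supplementary table. Scn4a, Cacna1d, Hcn4, Cacnb2 and Cacnb3 were named by gene order. By summed FPKM, which the most abundant genes dominate, the 14 pores in AN rats were at 35.7% of SD acutely and 59.2% chronically, and the 14 auxiliary subunits at 45.2% and 64.5%. Hcn2 made up most of the pore sum, and Cacng7, Cacnb3 and Scn4b most of the auxiliary sum.

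**Figure D3:**
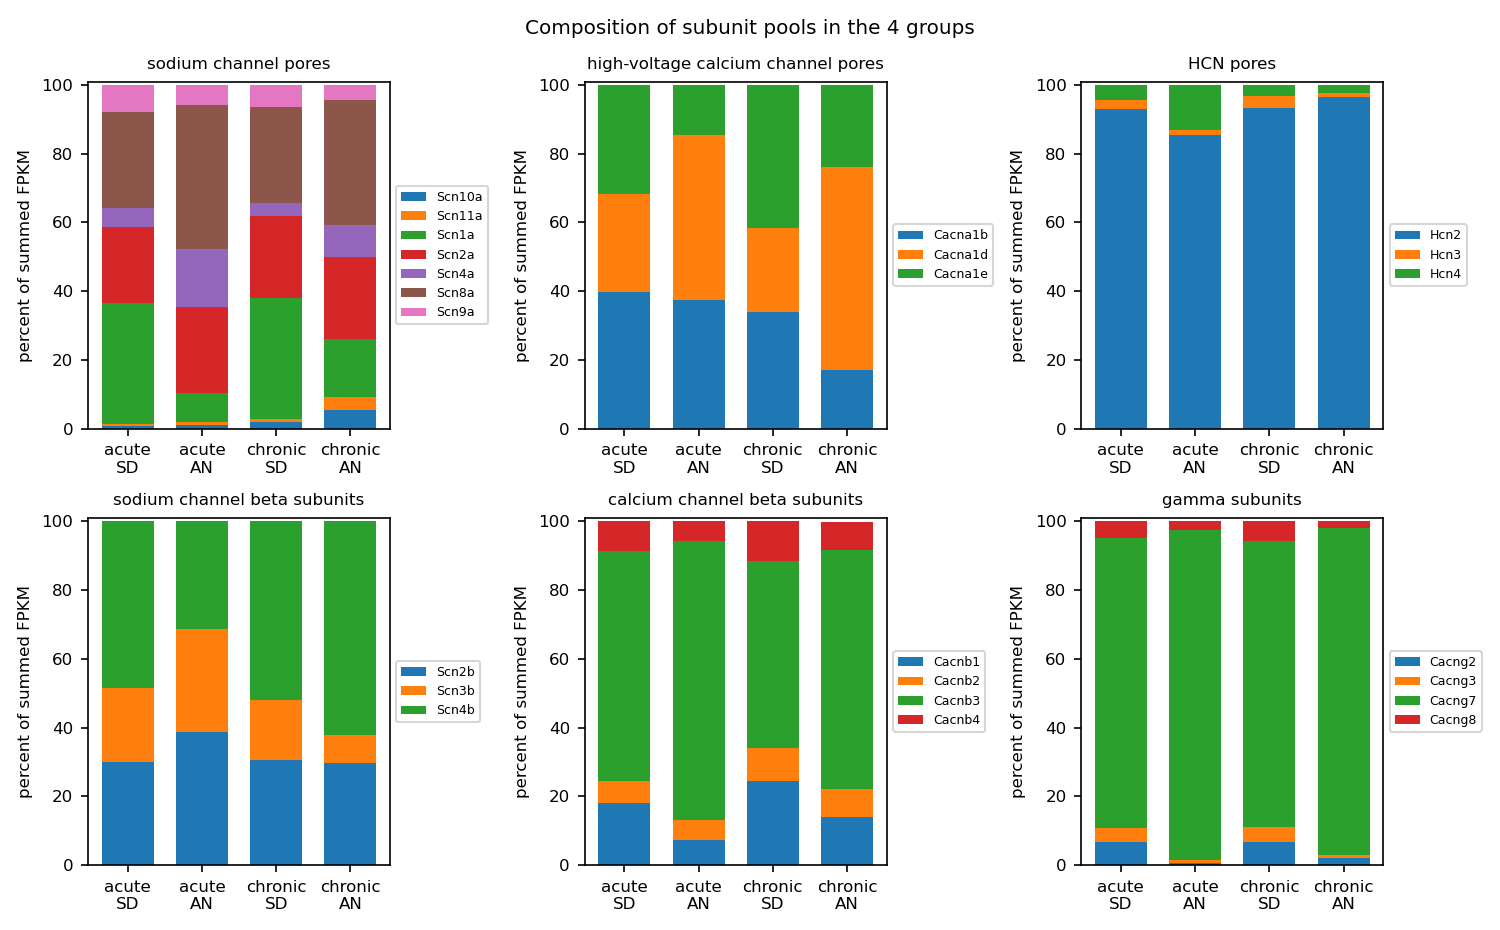
Share of each gene in the summed FPKM of its subunit pool in the 4 groups, as stacked bars in percent, over the matched genes only. The Scn1a share of the sodium channel pores is 35.4% in acute SD and 8.43% in acute AN rats, and the Cacng7 share of the gamma subunits is over 83% in every group.

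Between the phases, 20 of 25 members stood lower in AN relative to SD at 1 week than at 8 weeks, a count that was 20 with a pseudocount of 0.1 and 16 with a pseudocount of 1. Each ratio was taken within its own table, as the tables were normalized separately, and the phases hold different rats. Of 25 genes, 22 had a log2FC of the same direction in both phases, all lower in AN, beside 69.1% of all 11529 genes with the same direction in both phases. At least 2-fold lower in both were 15, beside 5.12% of all these genes and 27.4% of the 1898 named through the supplementary table. A further 6 (Cacna1d, Hcn2, Scn2b, Scn4b, Cacnb4 and Cacng7) were 2-fold lower in the acute phase only (6.69% of all genes and 30.2% of those named through the table), and 0 in the chronic phase only (0.763% and 0.843%). The median difference (acute minus chronic log2FC) was -0.44. Without a pseudocount, the widest of these were Cacng2 (-2.54), Scn4b (-1.74), Scn1a (-1.58) and Cacna2d3 (-1.49).

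A lower acute log2FC was also common among genes named through the supplementary table in general, where it held for 73.4% of 1898 genes (median difference -0.53), against 16 of 20 channel genes by the same route (median -0.48). Among the 9631 genes not named through it, 51.7% had the lower acute log2FC. Since that route selects on the acute values, the acute side of this comparison is not free of the choice. The chronic side used other rats: of 1094 genes by this route that were 2-fold lower acutely, 47.6% were also 2-fold lower chronically (median log2FC -0.94), beside 15 of the 20 channel genes (median -1.93). Without a pseudocount it was the other way round in 5 genes, with the acute log2FC above the chronic one by the amount given: Hcn4 (1.17), Scn3b (0.70), Cacna1b (0.44), Cacng8 (0.03) and Cacna2d2 (0.02). With a pseudocount of 1 this held for 9 genes, as Cacna1e, Cacna1i, Hcn3 and Cacng3 turned as well, so for these 4 the order of the phases depends on small AN values. Over the 25 genes the log2FC of the phases correlated with a Pearson r of 0.77 and a Spearman rho of 0.80, and over all 11529 genes with both values 0.74 and 0.57, as descriptions across genes of the same pooled groups.

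**Figure D4:**
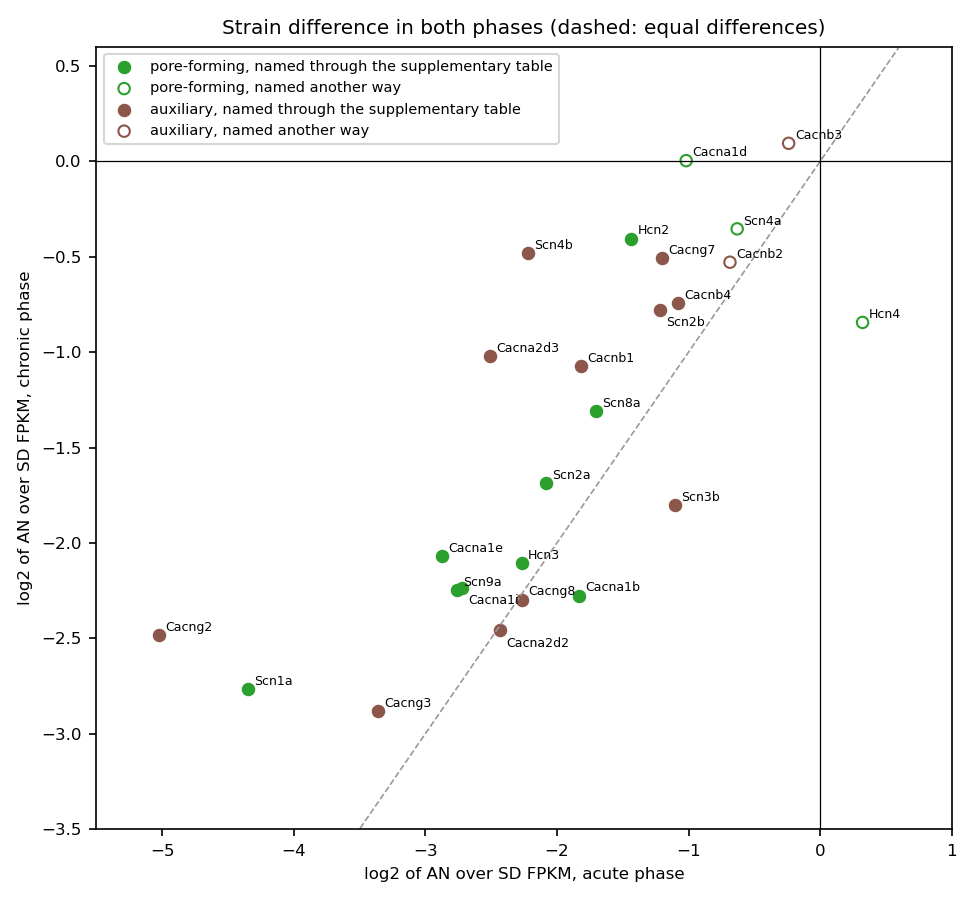
log2 of AN over SD FPKM in the chronic (vertical) against the acute phase (horizontal) for the 25 subunit genes over the floor; filled points were named through the supplementary table. Most points lie above the dashed line of equal differences, and Scn3b, Cacna1b and Hcn4 lie below it.

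Other members of the families and partners of the channels gave a mixed picture. Scn7a, a sodium-sensing relative found in glia and Schwann cells, had 19.2 in SD and 11.4 in AN rats acutely and 28.7 and 52.7 chronically, with log2FC of -0.75 and 0.87, both within 2-fold. Cacng1 and Cacng6 were not matched.

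Of the proteins that hold sodium channels at nodes and initial segments, 6 of 10 were matched, all through the supplementary table. Of these 6, 4 were 2-fold lower acutely (median log2FC -1.44) and 1 chronically (-0.58). Among all genes named through that table, the shares were 57.2% acutely and 29.7% chronically. Nfasc, a cell adhesion protein of nodes, had the highest level, with 164 in SD and 90.0 in AN rats acutely and 71.9 and 61.7 chronically. Sptbn4, the spectrin beneath the channels, was the gene 2-fold lower in both phases, with 5.51 and 1.33 acutely and 5.57 and 1.77 chronically. Nrcam, Fgf12 and Cntnap1 had acute log2FC of -0.91, -1.94 and -1.71 and chronic log2FC of -0.40, -0.88 and -0.76.

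Partners at the release site with a value were lower in AN in both phases. Of 10 partners of presynaptic calcium channels 7 were matched and 6 had a value, of which 5 were 2-fold lower acutely (median -2.01) and 6 chronically (-1.74). Syt1, the calcium sensor of release, had 9.37 in SD and 2.15 in AN rats acutely and 18.1 and 4.46 chronically, and Syt2 had 7.97 and 0.282 acutely and 11.6 and 2.21 chronically. Rims2 and Bsn, active zone scaffolds, had chronic log2FC of -1.47 and -1.44. The AMPA receptor partners of the gamma subunits were 2-fold lower in 3 of 5 matched genes acutely and 2 of 5 chronically, with Gria2 at log2FC of -1.53 and -1.66 and Gria4 at -1.78 and -1.21. Dlg4, the most abundant of them, was at -0.63 and -0.41, and Gria3 at -0.57 and -0.95.

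The HCN partner Pex5l had 14.0 in SD and 4.30 in AN rats acutely and 19.8 and 13.4 chronically. The partners of muscle calcium channels stayed low, and the 5 of 6 matched were all named by gene order. Over the floor, 0 of 2 were 2-fold apart acutely and 0 of 3 chronically. Of all genes not named through the supplementary table, 2.85% acutely and 2.01% chronically were at least 2-fold lower in AN. All partners of sodium and presynaptic calcium channels with a value had been named through the supplementary table, so their counts carry the same choice. They stand beside 57.2% acutely and 29.7% chronically of all genes by that route. Of the AMPA receptor partners, Gria2 and Gria4 were named through that table, and Gria3 and Dlg4 by gene order.

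Neuron markers were lower in AN rats as well. The 10 matched of 12 neuron markers summed to an FPKM of 1524 (SD) and 270.6 (AN) acutely and of 1391 and 442.9 chronically, and no marker was listed at 0. All 10 were named through the supplementary table, and 10 were 2-fold lower in AN acutely (median log2FC -2.33, from -4.72 to -1.06) and 9 chronically (-1.69, from -3.14 to -0.87). The 4 with the highest mean level were Uchl1, Eno2, Tubb3 and Nefl, of which Nefl had 205 in SD and 8.68 in AN rats acutely. In bulk tissue, fewer neurons and less channel RNA per neuron cannot be told apart.

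Set beside the neuron markers, the place of the channels depended on how small values were treated. Of the 20 members named by the same route as the markers, 8 lay below the neuron median acutely and 11 chronically without a pseudocount. With a pseudocount of 0.1 added to members and markers alike the counts were 5 and 11, and with a pseudocount of 1 they were 0 and 3 (Scn1a, Cacna2d2 and Cacng2), beside neuron medians of -2.30 and -1.59. No order between channels and neuron markers is therefore read from these values. The 5 members named another way lay above the neuron median in both phases with each of these pseudocounts.

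Markers of other cell types also differed between the groups, and their part in the channel values was not tested. Motor neuron markers, of which 4 of 6 were matched, summed to 65.6 in SD and 3.14 in AN rats acutely and to 39.8 and 11.2 chronically. Oligodendrocyte markers (4 of 6) summed to 1771 and 821 acutely and to 1619 and 1436 chronically, and Schwann cell markers (5 of 5) to 3799 and 1203 acutely and to 6010 and 4981 chronically. Macrophage and microglia markers (5 of 8) summed to 3971 in SD and 6339 in AN rats acutely and to 2337 and 3931 chronically. Gpnmb makes up most of these sums, and without it they were 493.8 and 639.4 acutely and 369.7 and 348.3 chronically, so that the chronic order turned. Fibroblast markers (4 of 5) summed to 2702 and 4061 acutely and to 1262 and 1916 chronically, and all 4 were named by gene order. Skeletal muscle markers (3 of 8) summed to 22.6 and 8.16 acutely and to 13.9 and 7.47 chronically, beside the low values of Scn4a.

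Glial lists differed among themselves. The median log2FC was -1.35 for oligodendrocyte and -1.61 for Schwann cell markers acutely, and -0.26 and 0.27 chronically. It was -0.28 acutely and -0.20 chronically for oligodendrocyte precursor markers. Of these, 0 of 4 were at least 2-fold lower in either phase, against 11.8% of all genes acutely and 6.57% chronically. Olig1 and Olig2, named through the supplementary table, had acute log2FC of -0.94 and -0.68. Pdgfra and Cspg4, named by gene order, had 0.46 and 0.13. Macrophage and microglia markers had medians of 0.61 and -0.12, and 2 of these 5 were named through the supplementary table. Sensory neuron markers (3 of 6) summed to 19.8 and 3.01 acutely and to 25.1 and 7.19 chronically, smooth muscle and pericyte markers (5 of 6) to 298.5 and 277.7 and to 176.1 and 190.7, and oligodendrocyte precursor markers (4 of 4) to 244.6 and 186.9 and to 243 and 219.3. T cell markers (5 of 6) summed to 182.9 and 244.6 acutely and to 128 and 105 chronically, a sum made up mostly of Cd4 and Cd8a. Cd3g, a T cell receptor chain, had 2.74 in SD and 0.531 in AN rats acutely. The astrocyte and endothelium lists had 1 gene each with a value in all groups (Slc1a2 and Cdh5), with log2FC of -1.69 and 0.18 acutely and -0.27 and 0.79 chronically.

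**Figure D5:**
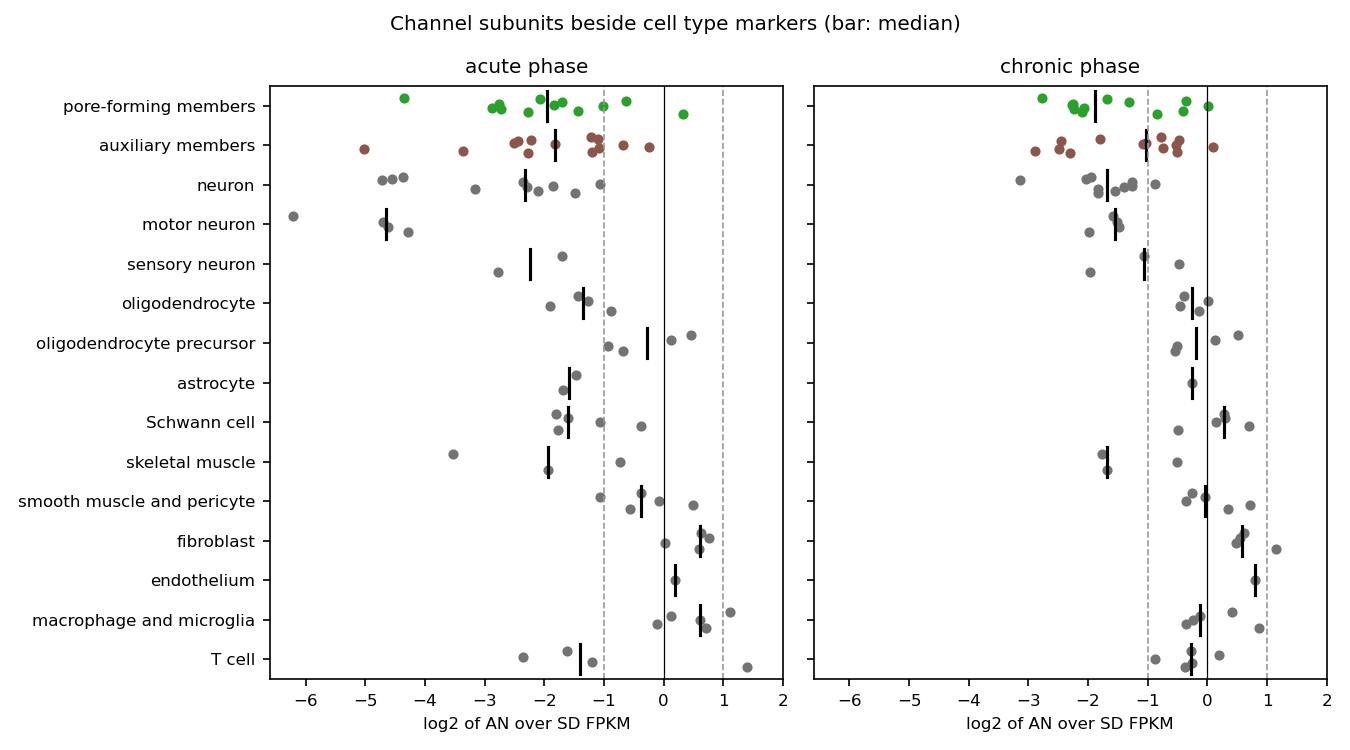
log2 of AN over SD FPKM of the pore-forming and auxiliary subunits and of the matched genes of each cell type list, in the acute (left) and chronic phase (right); points are genes over the floor, bars are medians and dashed lines mark a 2-fold difference. Most channel subunits and all neuron markers lie left of the 2-fold line in the acute phase, while fibroblast markers lie right of 0 in both phases.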

How the data were processed

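RNA from 12 injured cord segments was sequenced. The authors checked read quality (FastQC), removed adapters (CutAdapt), mapped reads with TopHat 1.5.0 to the RN4 rat genome, and ran Cufflinks 0.0.6 with quartile normalization, CuffMerge for each time point and CuffDiff between strains. The authors deposited 2 tables, each with 1 FPKM per gene and group of 3 rats and each normalized on its own. The tables also hold the authors' fold changes, test statistics, p-values and q-values, which were not used. Values per rat and depth per gene are not given, and with the authors' statistics unused, precision was not judged here.

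From these, log2FC was computed without pseudocount for genes with a mean FPKM of at least 0.5 in a phase and none where a group was listed at 0. A 2-fold difference counted as a call, and no p-value was computed. Failed estimates (3 genes acutely, 2 chronically, among them Gfap in the chronic phase) were left out. The fold calls were tested on simulated data, a check of the computation that cannot show the spread between rats.

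Genes are listed by RGD identifier. Of 17423, 1997 were named through the supplementary table, 2702 by RGD number among RefSeq synonyms and 5890 by order between named genes on the GRCr8 table, keeping only names clearly better than any other by span. Of 2250 held-out names, 1399 got a name by order and 97.3% got the right one. The supplementary table was read in part, and that part held genes called different in the acute phase. RN4 coordinates are counted from 1. Promoters are from RefSeq (GRCr8).

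The members and gene lists were chosen with earlier results of these data known. Every matched member is named with its values, and from other lists up to 4 genes with the highest mean FPKM, along with Sptbn4, chosen after its values were seen. Some listed genes are not reported here. Alternatives were other pseudocounts, floors, scalings and folds and narrower naming. Python 3.11.15, pandas 2.3.3, NumPy 2.4.6 and matplotlib 3.10.9 were used.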

Additional observations from a re-analysis of the deposited data

How the results depend on the processing

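Counts of 2-fold calls and medians of the members stayed within 1.5 times of their values under a pseudocount of 0.1, floors of none, 0.1 and 1, median centring and 75th percentile scaling. The median log2FC of all genes was -0.0054 acutely and 0.0038 chronically, so neither scaling moved it by 0.1. With a pseudocount of 1 the acute medians were -1.10 for pores and -1.19 for auxiliary subunits and the chronic ones -1.04 and -0.85, and the share of all genes lower in AN was 7.33% acutely and 3.91% chronically. From 1.5-fold on, that share was 18.6% and 11.1%, and from 3-fold on 6.22% and 3.66%, with 7 auxiliary members lower acutely. Over directly named genes alone it was 28.5% and 15.2%.

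An alternative chosen after seeing the data left out the members named through the supplementary table. By its construction it leaves only genes outside a list of genes called different acutely, so it does not show what an even sample would give. Then 1 of 3 pores and 0 of 2 auxiliary subunits were 2-fold lower acutely (medians -0.63 and -0.46) and 0 of 3 and 0 of 2 chronically (-0.35 and -0.22), and 2 of 5 kept 1 direction in both phases. Also added after seeing the data, the members below the neuron median were 5 acutely with a pseudocount of 0.1, and 0 acutely and 3 chronically with a pseudocount of 1, in place of 8 and 11, and those with the lower acute log2FC 16 in place of 20. Leaving out members in shared loci, likewise chosen, moved no count or median by over 1.5 times. No called member changed direction under any alternative, and of 441 single-gene values 431 kept their direction and side of 2-fold, 9 fell under 2-fold, 8 of them with a pseudocount of 1, and 1 near 0 changed sign (Cacna1d in the chronic phase, -0.015 with 75th percentile scaling). Leaving out single rats could not be run, since the tables hold 1 value per group. No paired analysis was possible because the columns carry no replicate numbers.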
